A study of Homo sapiens with 15 samples.

Results

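The loops described here join the promoter of a protein-coding gene to a distal anchor and were called in both the H3K27ac and the H3K4me3 HiChIP loop sets of LNCaP cells. They were taken as the pairs of anchors listed in both sets, at a length of 10 kb to below 1 Mb, with exactly 1 of the 2 anchors within 2.5 kb of the canonical start of a protein-coding gene. The rule gave 40789 loops of the 505995 different loops in the deposited tables (8.06%), which are 59.3% of the 68822 loops found in both sets. Of the remaining loops in both sets and in the length range, 12848 joined promoters to promoters and 9624 had no promoter. Members made up 42.1% of the promoter to distal loops of this length in the H3K27ac set and 22.0% of those in the H3K4me3 set. They were 16.9% (95% interval 16.7 to 17.0) of the 241539 such loops in either set, the rest being 56022 H3K27ac-only and 144728 H3K4me3-only loops.

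HiChIP joins DNA ends that lie close together in fixed nuclei, enriches with an antibody the fragments that carry a histone mark, and counts the joined ends as read pairs. LNCaP, an androgen-responsive prostate cancer cell line kept for 3 days in medium with charcoal-stripped serum, received ethanol alone (0 m) or the androgen dihydrotestosterone (DHT) at 10 nM, for 30 m or for 4, 16 or 72 h. The 15 labelled samples are 10 H3K27ac libraries, with 2 at each of the 5 time points, and 5 H3K4me3 libraries, with 1 at each. Each deposited table gives every loop 1 contact frequency, which the authors scaled within a mark with the trimmed mean of M values (TMM), so that no value has a replicate error and no test between time points was made.

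Promoters of transcribed genes carry H3K4me3, whereas H3K27ac lies on active promoters and active enhancers alike. In prostate cells the response to androgen runs mostly through distal sites, many of them opened with the help of forkhead factors such as FOXA1, and a palindromic DNA element is its classical sequence. A loop between a promoter and a distal site is a measure of how often the ends met, and not of whether the distal site acts on the gene.

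Sequence from the ends of 3 strong loops is shown, so that the kind of DNA found there can be read. HNRNPF, which encodes an RNA-binding splicing regulator, had the member loop with the highest contact averaged over the 10 tables of both marks, and ranked 2 in H3K27ac and 1 in H3K4me3. GPR146, a G protein-coupled receptor gene, ranked 3 by the average, 1 in H3K27ac and 118 in H3K4me3, and ATN1, the gene of the transcriptional corepressor atrophin 1, ranked 7, 6 and 22. The promoter sequence is the 200 bases before the annotated start on the strand of the gene, and each distal sequence is the middle 200 bases of the 1 kb anchor on the plus strand, all from GRCh37 (hg19). For HNRNPF the distal window is chr10:43892401-43892600, inside an intron of HNRNPF. For GPR146 the promoter window is chr7:1083982-1084181 on the plus strand, and the distal window chr7:1067401-1067600 lies inside an intron of its neighbour C7orf50. For ATN1 the distal window is chr12:7047401-7047600, inside an intron of ATN1. Capitals mark the GC box GGGCGG on either strand, and matches that touch or overlap run together.
HNRNPF distal anchor: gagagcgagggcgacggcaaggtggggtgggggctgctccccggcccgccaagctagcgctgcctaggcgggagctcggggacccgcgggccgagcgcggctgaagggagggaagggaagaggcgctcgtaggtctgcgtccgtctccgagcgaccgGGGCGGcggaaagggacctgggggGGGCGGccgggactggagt
GPR146 promoter: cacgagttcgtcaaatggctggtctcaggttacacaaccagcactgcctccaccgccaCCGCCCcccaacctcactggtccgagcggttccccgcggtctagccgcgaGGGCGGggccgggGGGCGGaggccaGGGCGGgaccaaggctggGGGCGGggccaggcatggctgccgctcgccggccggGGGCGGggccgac
GPR146 distal anchor: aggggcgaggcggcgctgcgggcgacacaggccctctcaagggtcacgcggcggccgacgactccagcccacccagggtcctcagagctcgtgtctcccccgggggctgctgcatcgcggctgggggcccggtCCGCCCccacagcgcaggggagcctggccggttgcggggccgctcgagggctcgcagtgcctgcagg
ATN1 distal anchor: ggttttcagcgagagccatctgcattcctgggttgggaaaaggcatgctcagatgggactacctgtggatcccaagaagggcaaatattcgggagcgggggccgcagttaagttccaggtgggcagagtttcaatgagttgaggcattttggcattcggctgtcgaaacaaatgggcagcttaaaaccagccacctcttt

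The GPR146 promoter is rich in G and C and holds 6 GC boxes. The distal windows of HNRNPF (75.5% GC) and GPR146 (77.0%) resemble it in base composition and hold 2 GC boxes and 1. In ATN1 (52.0%) the distal window has no GC box and is printed in lower case throughout. A GC box was present in the 200 bases before the start of 70.5% of the 9657 genes with a member loop and of 56.4% of all 19881 protein-coding genes. In the middle 200 bases it was present at 4.25% of the 27815 distal anchors of the members and at 4.18% of all 210059 anchors. The CCAAT box, with the letters CCAAT, was present at 24.5% and 25.5% of these anchors. It is in none of the 4 windows, and neither are the ETS motif CCGGAAG, the NRF1 motif GCATGCGC or the TATA box TATAAA.

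The letters of a full androgen response element, AGAACA, 3 bases of any kind and TGTTCT, were found in 6 distal anchors, which 8 member loops join to promoters. These sequences are shown because the element is the classical one of the androgen response, and each is printed with 30 bases on either side, on the plus strand of GRCh37, with the element in capitals. The gene named is that of the looped promoter. The positions are chr2:47452043-47452117 for CALM2, chr9:96152867-96152941 for FAM120A, chr17:64672287-64672361 for CEP112, chr2:238787697-238787771 for SCLY, chr16:52897020-52897094 for TOX3 and chr1:59982653-59982727 for FGGY. The anchors of CALM2, FAM120A and TOX3 lie between protein-coding genes, that of CEP112 in an intron of PRKCA, that of SCLY in an intron of RAMP1 and that of FGGY in an intron of FGGY.
CALM2 distal element: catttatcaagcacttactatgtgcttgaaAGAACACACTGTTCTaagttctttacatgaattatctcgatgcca
FAM120A distal element: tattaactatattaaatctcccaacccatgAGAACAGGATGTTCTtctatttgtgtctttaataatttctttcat
CEP112 distal element: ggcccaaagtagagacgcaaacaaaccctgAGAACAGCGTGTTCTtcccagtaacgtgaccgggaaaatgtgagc
SCLY distal element: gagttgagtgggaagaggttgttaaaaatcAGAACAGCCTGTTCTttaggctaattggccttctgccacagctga
TOX3 distal element: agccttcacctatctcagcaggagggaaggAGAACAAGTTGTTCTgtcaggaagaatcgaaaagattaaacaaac
FGGY distal element: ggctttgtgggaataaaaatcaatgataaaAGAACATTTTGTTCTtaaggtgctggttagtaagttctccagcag

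The element was as rare in the distal anchors of the members (0.0216%) as in all anchors of the tables (40 of 210059, 0.0190%). A match is a description of the letters and not evidence of binding, and looser forms of the element were not searched.

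Within rounding, every deposited value was a whole multiple of 1 step per table, the value of 1 read pair, so that each contact could be turned back into a count. The 95% intervals given here are exact for counts of read pairs and cover counting error only. Counted over all loops and in order of time, the H3K27ac tables held 2475168, 4308555, 3569078, 4066305 and 3112568 read pairs. The H3K4me3 tables held 2567961, 2153262, 10675614, 4115072 and 2413317, so that the 4 h table of this mark stands apart in depth. A member had a median of 4, 6, 5, 5 and 4 read pairs at the 5 time points of H3K27ac. In H3K4me3 the median was 5, 4, 23, 8 and 5. Single loops are therefore given with intervals, and most results below are sums over many loops.

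Members were the most completely covered promoter to distal loops. Read pairs were present in all 10 tables for 30707 of them (75.3%), against 54.7% of H3K27ac-only and 23.8% of H3K4me3-only loops. Members without a read pair numbered between 497 (30 m) and 2312 (0 m) in H3K27ac, and between 7 (4 h) and 2762 (30 m) in H3K4me3. Since the loops of a mark were called on all time points merged, the deeper tables weighed more in which loops are members, and the rule favours loops with contact in both marks.

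Levels of contact are compared within a mark only, since each mark was scaled by itself. In order of time, H3K27ac contact averaged 1.72, 1.96, 1.65, 2.05 and 1.98 per member, which puts 0 m and 4 h below the other times. H3K4me3 contact averaged 2.46, 2.56, 2.98, 2.63 and 2.24, with the highest value at 4 h, in the deepest table, and the lowest at 72 h. The part of depth in that order was not tested. Whether both H3K27ac replicates entered a value is not stated by the authors.

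Against 0 m, H3K27ac contact of the members differed by a log2 of 0.19 (0.18 to 0.20) at 30 m, -0.06 (-0.06 to -0.05) at 4 h, 0.25 (0.25 to 0.26) at 16 h and 0.20 (0.19 to 0.21) at 72 h. The 4 changes of H3K4me3 contact were 0.06 (0.05 to 0.07), 0.28 (0.27 to 0.28), 0.10 (0.09 to 0.10) and -0.13 (-0.14 to -0.13). All comparisons of a mark share its 0 m table. These values depend on the scaling. With equal totals per table in place of TMM, every H3K27ac change shifts by -0.09, -0.07, -0.25 and -0.17 in order of time, and every H3K4me3 change by -0.02, -0.22, -0.14 and 0.13. The members then stand at 0.01 in H3K27ac and -0.04 in H3K4me3 at 16 h. Scaling by the median of ratios shifts H3K4me3 by -0.13 at 4 h and every other comparison by less than 0.1. Under equal totals a positive change smaller than the downward shift of its time point turns negative, and for H3K4me3 at 72 h, where the shift is upward, a negative change closer to 0 than -0.13 turns positive, whereas the difference between 2 sets of loops in the same table does not depend on any scaling.

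**Figure D1:**
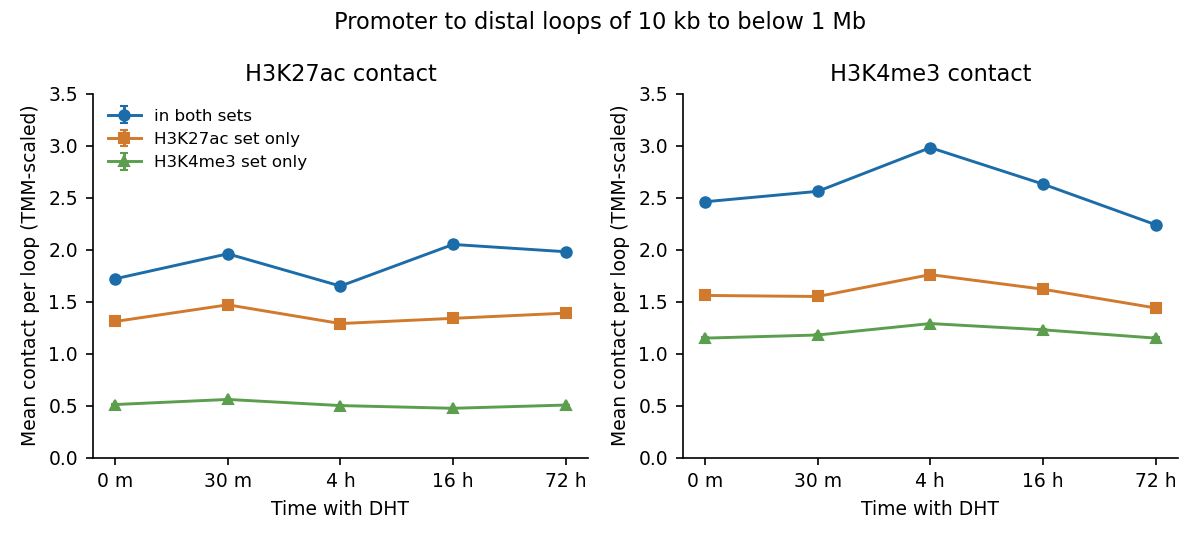
Mean TMM-scaled contact per loop (y axis) at the 5 time points (x axis) for H3K27ac (left) and H3K4me3 (right). Lines are loops in both sets, H3K27ac-only and H3K4me3-only promoter to distal loops, and bars are 95% counting intervals. Loops in both sets are highest at every time point in both marks, from 1.65 to 2.05 in H3K27ac and from 2.24 to 2.98 in H3K4me3.

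Beside the other loops of the same tables, the members took a larger share of H3K27ac read pairs after DHT at 30 m, 16 h and 72 h. Of all read pairs on loops of 10 kb to below 1 Mb, members held 13.9% without DHT, then 15.8%, 13.5%, 16.4% and 15.9% in order of time. In H3K4me3 the shares were 19.1%, 19.9%, 20.4%, 19.3% and 18.4%. The change of members minus that of all loops of the range was 0.24 at 16 h in H3K27ac and 0.01 in H3K4me3. Against H3K27ac-only loops the difference at 16 h was 0.22 in H3K27ac, and against H3K4me3-only loops it was 0.36. At 30 m the H3K27ac differences from these sets were only 0.02 and 0.06. Measured against loops of every length the 16 h share hardly moved, since members held 9.63% of all H3K27ac read pairs at 0 m and 9.68% at 16 h.

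Members were mostly loops of intermediate length. Their median length was 155000 bp, with quartiles at 70000 and 305000 bp, against 160000 bp for H3K27ac-only and 260000 bp for H3K4me3-only loops. The share of promoter to distal loops that were members was between 19.9% and 22.8% in the 5 length classes below 200 kb, then 15.2% from 200 to 500 kb and 9.23% from 500 kb to 1 Mb. Contact dropped steeply with length. At 0 m it averaged 6.75 in H3K27ac and 11.8 in H3K4me3 for members of 10 kb to below 15 kb, and 0.730 and 0.756 for members of 500 kb or more. At the lower limit, the 1715 promoter to distal loops in both sets that were too short averaged 14.2 and 23.6 at 0 m. Beyond the upper limit, the 737 loops of 1 Mb or more averaged 0.620 and 0.512, and the 293 members nearest to that limit, at a median length of 940000 bp, averaged 0.718 and 0.642.

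The H3K27ac change at 16 h was largest in short members and above that of the other sets in every length class. It was 0.41 (0.38 to 0.43) in members of 10 kb to below 15 kb, where H3K27ac-only loops had 0.17 and H3K4me3-only loops 0.19. For members of 100 to 200 kb it was 0.19 (0.17 to 0.20), against -0.04 and -0.21 in the other sets. In the longest class the members had 0.21 (0.17 to 0.25), against -0.06 and -0.20. The difference between sets is therefore present within each of the 7 length classes. H3K4me3 contact at 16 h went the other way with length, from 0.08 (0.06 to 0.09) in the shortest members and 0.01 from 20 to 50 kb to 0.20 (0.17 to 0.24) from 500 kb to 1 Mb. There the other sets had nearly the same values, 0.17 and 0.18 in the longest class.

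**Figure D2:**
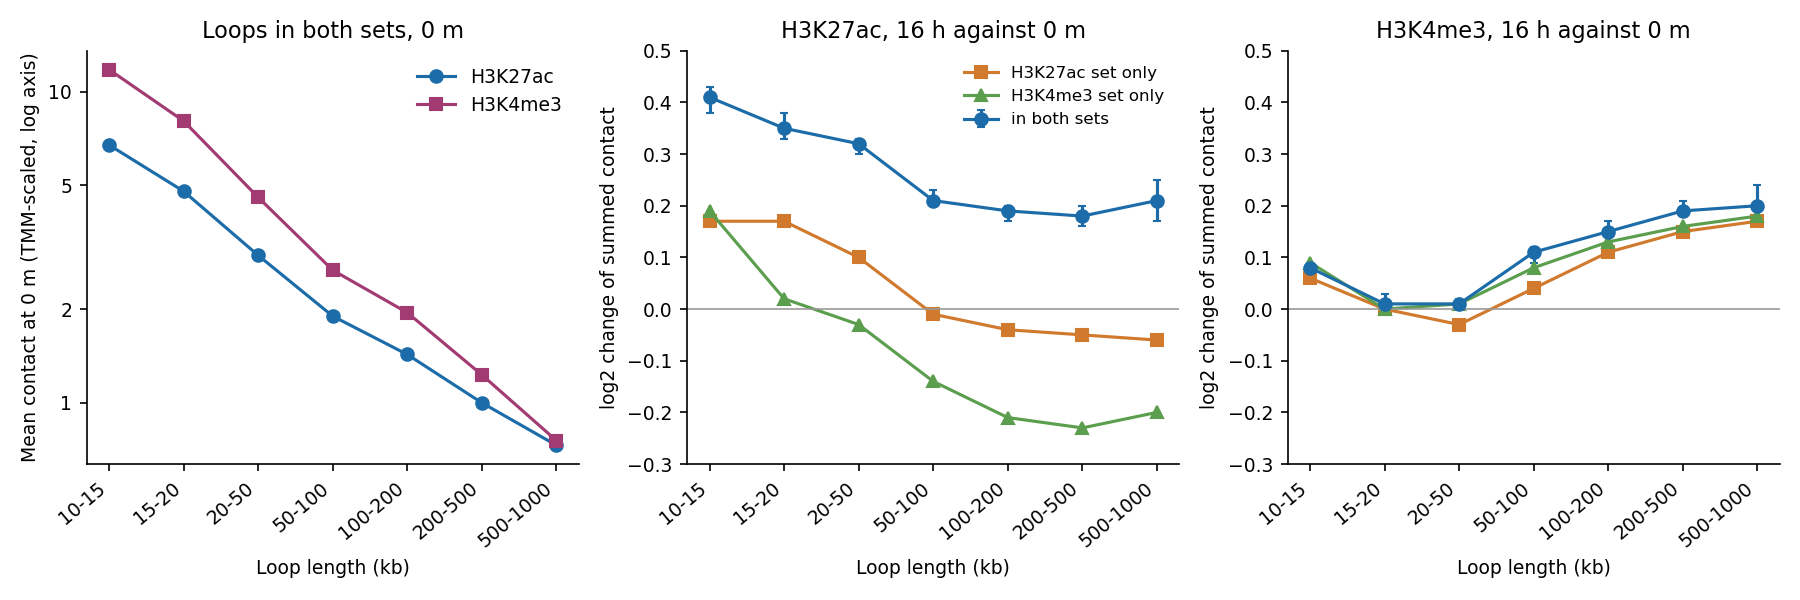
Left, mean contact at 0 m (log axis) of loops in both sets in 7 length classes in kb, for both marks. Middle and right, log2 change of summed contact from 0 m to 16 h in the same classes for loops in both sets (bars are 95% counting intervals), H3K27ac-only and H3K4me3-only loops. In H3K27ac the members run from 0.41 to 0.18 and lie above both other sets in each class, while under equal totals every value in that panel is 0.25 lower and every value in the H3K4me3 panel 0.14 lower.

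Contact classes, chosen after the values were seen, sorted the members by mean H3K27ac contact over the 5 time points, in which the 16 h value itself takes part. The 19133 members with a mean below 1 changed by 0.01 (-0.01 to 0.03) at 16 h, those from 2 to 4 by 0.23 and the 206 members of 16 or more by 0.68 (0.65 to 0.71). H3K27ac-only loops went from -0.16 to 0.57 over the same classes, and H3K4me3-only loops from -0.30 to 0.58, so that the sets were farthest apart among weak loops. In H3K4me3 the order was reversed, since members sorted by mean H3K4me3 contact ran from 0.20 in the weakest class to 0.04 in the strongest at 16 h, and from 0.02 to -0.33 at 72 h.

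The base composition of the distal anchor separated the time points. In 5 classes of GC content with about equal numbers of members, also chosen after the values were seen, the H3K27ac change at 30 m was -0.09 (-0.11 to -0.08) where the anchor had up to 37.9% GC and 0.36 (0.35 to 0.38) where it had over 50.4%. At 16 h the same classes had 0.17 and 0.25, with the highest value, 0.32, in the middle class. H3K4me3 contact ran the opposite way, from 0.15 to -0.06 at 30 m and from -0.02 (positive under equal totals) to -0.28 at 72 h. The median length lay between 150000 and 160000 bp in all 5 classes. Libraries can differ in how well they recover DNA of high or low GC content, and the part of this in the classes was not tested.

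**Figure D3:**
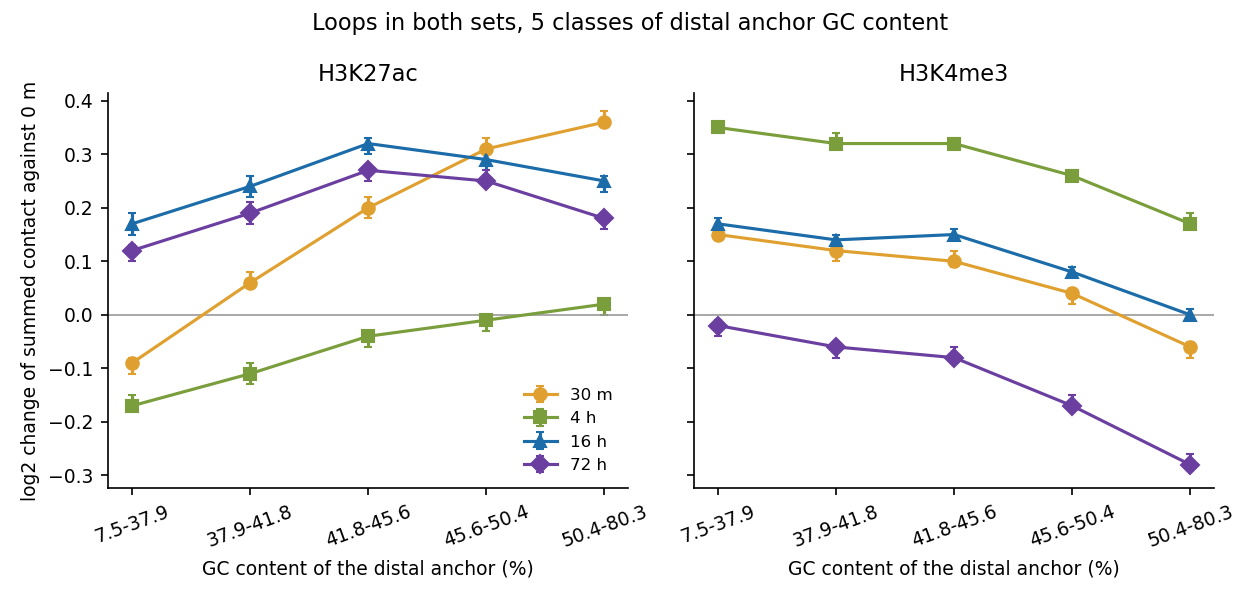
Log2 change of summed contact against 0 m (y axis) of loops in both sets, in 5 classes of GC content of the distal anchor (x axis, percent), for H3K27ac (left) and H3K4me3 (right). Lines are 30 m, 4 h, 16 h and 72 h, and bars are 95% counting intervals. At 30 m H3K27ac runs from -0.09 to 0.36 and H3K4me3 from 0.15 to -0.06.

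Loop by loop, H3K27ac members more often passed 2-fold upwards than downwards at 30 m, 16 h and 72 h. Counts were taken over loops with a mean of at least 10 read pairs over the 5 time points of a mark, which 8829 members passed in H3K27ac and 19140 in H3K4me3, and with 1 value per group a call means only that the fold was passed. In H3K27ac at 16 h, 1677 members (19.0%) were at least 2-fold higher than at 0 m, against 15.3% of all loops of the length range, and 355 (4.02%) were at least 2-fold lower, against 7.03%. Over loops of every length the shares were 17.7% and 6.81% at 16 h, and 15.2% and 7.90% at 72 h. At 30 m 1206 members were higher (13.7%, against 11.9%) and 348 lower (3.94%, against 7.49%), but the other promoter to distal loops had similar shares, 15.1% and 3.51% in H3K27ac-only and 13.5% and 3.09% in H3K4me3-only loops. At 72 h 1449 were higher (16.4%, against 14.0%) and 503 lower (5.70%, against 9.12%). The 4 h table was near balance under TMM, with 460 higher (5.21%, against 6.22%) and 563 lower (6.38%, against 5.13%). With equal totals 404 were higher there (4.58%, against 5.31%) and 681 lower (7.71%, against 6.22%). Of the calls at 16 h 82.5% were upwards (68.5% for all loops of the range), but 60.6% (44.2%) with equal totals, where 11.9% of members were higher and 7.72% lower, against 9.55% and 12.1% of all loops of the range. At 72 h the share of upward calls was 74.2% (60.5%), and 59.2% (44.6%) with equal totals.

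H3K4me3 members stayed near the background in most comparisons. At 30 m 1752 were at least 2-fold higher (9.15%, against 8.51% of all loops of the range) and 1318 lower (6.89%, against 8.03%). At 4 h, in the deepest table, 2711 were higher (14.2%, against 12.1%) and 287 of 19140 lower (against 2.38%). At 16 h 1670 were higher (8.73%, against 8.50%) and 712 lower (3.72%, against 4.25%), and with a minimum mean of 20 read pairs the members had 3.80% and 1.12%, against 3.44% and 1.53%. At 72 h 1118 were higher (5.84%, against 5.89%) and 1988 lower (10.4%, against 10.6%). With equal totals the share of calls that were upwards moved from 90.4% to 72.9% at 4 h (83.6% to 60.2% for all loops of the range), from 70.1% to 53.4% at 16 h (66.7% to 49.4%) and from 36.0% to 51.6% at 72 h (35.7% to 51.2%). Counting intervals of the 16 h change lay wholly above 0 for 1502 H3K27ac members (17.0%, against 12.7% of all loops of the range) and wholly below 0 for 214 (2.42%, against 4.61%). In H3K4me3 they were wholly above 0 for 694 members (3.63%, against 3.21%) and wholly below for 337 (1.76%, against 2.12%).

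**Figure D4:**
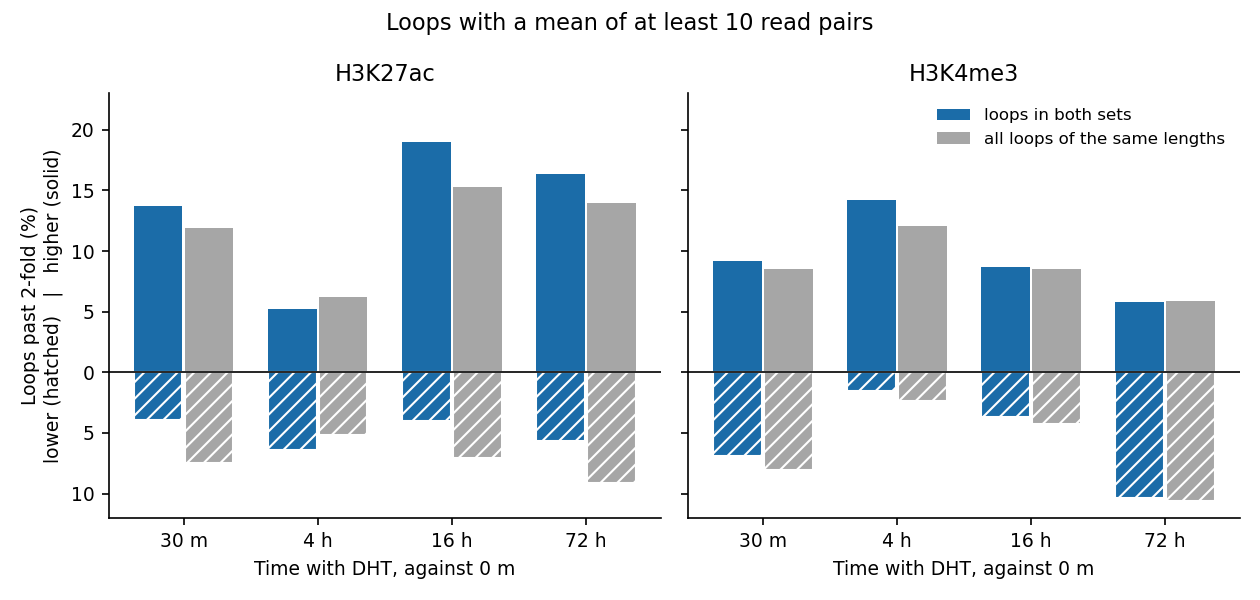
Percent of loops at least 2-fold higher (solid, upwards) or lower (hatched, downwards) than at 0 m, for H3K27ac (left) and H3K4me3 (right) at 30 m, 4 h, 16 h and 72 h. Blue bars are loops in both sets and grey bars all loops of the same lengths, each with a mean of at least 10 read pairs. In H3K27ac at 16 h the bars are 19.0% against 15.3% higher, the widest gap upwards, and 4.02% against 7.03% lower, which with equal totals becomes 11.9% against 9.55% and 7.72% against 12.1%. Loops of every length, not drawn, had 17.7% higher and 6.81% lower at 16 h in H3K27ac under TMM.

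The marks ranked the members alike in contact but not in change. Across the 40789 members, mean H3K27ac and mean H3K4me3 contact had a Spearman rho of 0.74 and a Pearson r of 0.78, and both were lower at greater length (rho -0.64 for each). The log2 changes at 16 h had a rho of 0.04 over 8201 members with enough read pairs in both marks, and at 30 m a rho of -0.05 over 8199. These are descriptions across loops, since neighbouring loops share anchors, libraries and depth.

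By that average over both marks the strongest members were short loops. The marks were scaled separately and the order differs between them, as at GPR146, with rank 1 in H3K27ac and 118 in H3K4me3. After HNRNPF came a loop of 15 kb at CCNL1, the cyclin L1 gene, then GPR146, and then promoters shared by ATP5PD, an ATP synthase subunit, and KCTD2. The other loops among the 8 strongest belonged to NAA38 and CYB5D1, to BAD, which encodes a death-promoting member of the BCL2 family, and GPR137, to ATN1, and to TRPM4, a cation channel gene. HNRNPF had H3K27ac contacts of 41.1, 69.3, 40.8, 69.6 and 66.8 at the 5 time points and H3K4me3 contacts of 44.8, 53.6, 74.2, 72.7 and 35.2. CCNL1 stood out in H3K27ac with 27.9, 49.8, 23.1, 79.0 and 83.4, so that 16 h and 72 h were far above 0 m and 4 h. The interval of its log2 change at 16 h ran from 1.17 to 1.84, and the change in H3K4me3 was 0.48 (0.14 to 0.83). GPR146 had 39.7, 79.2, 41.7, 80.0 and 95.0 in H3K27ac, a change of 1.01 (0.73 to 1.31) at 16 h, while its H3K4me3 contacts at 0 m and 16 h were 22.8 and 23.2. The loop of BAD and GPR137 went from 18.8 at 0 m to 60.1 at 16 h in H3K27ac (1.68, 1.28 to 2.09) and from 44.3 to 35.6 in H3K4me3. For the promoter of NAA38 and CYB5D1, whose distal anchor lies in KDM6B, a histone demethylase gene, H3K4me3 contact was lower at 16 h (-0.67, -0.98 to -0.36) and H3K27ac contact higher (0.49, 0.18 to 0.80). ATN1 and TRPM4 had smaller H3K27ac changes, 0.43 (0.10 to 0.76) and 0.22 (-0.15 to 0.59), and under equal totals the latter turns negative.

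Members outside chromosome 8 with a mean of at least 10 read pairs, ranked by the size of the H3K27ac change at 16 h, had very few read pairs at one end. The 6 largest increases each rested on 1 read pair at 0 m. BTG1, an antiproliferative gene, had the largest, with 1, 8, 12, 32 and 5 read pairs in a loop of 425 kb and a log2 change of 4.53 (1.95 to 9.88). PRR15, the shared promoter of MOAP1 and LYSET, TESK2, STIM2, which encodes a calcium sensor of the endoplasmic reticulum, and PYGB, the brain form of glycogen phosphorylase, followed with log2 changes from 4.29 down to 3.78. For PYGB the interval ran from 1.13 to 9.16. Among the decreases, NOTCH1, a receptor that controls cell fate, had 16, 19, 8, 3 and 6 read pairs and -2.88 (-5.30 to -1.08). PPP1R9B, the shared promoter of GNB1L and RTL10, ACAD9, SLC2A12 and ABT1 lay between -2.79 and -2.56. ACAD9 encodes a mitochondrial dehydrogenase and assembly factor of respiratory complex I, and SLC2A12 a glucose transporter.

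Loops within these limits that had more than 3 read pairs both at 0 m and at 16 h were also ranked by the bound of the interval nearest to 0, with the limit and the ranking chosen after the values were seen. CITED2, the gene of a transcriptional coregulator, led with contacts of 1.18, 3.78, 1.71, 12.3 and 12.6 in a loop of 240 kb, a log2 change of 3.39 (1.96 to 5.31). TMEM219, a loop of 15 kb within the gene, had 10.3, 27.9, 11.1, 40.8 and 41.6 (1.99, 1.46 to 2.55). EIF4H, which encodes a translation initiation factor, had 5.58, 20.2, 8.55, 24.8 and 17.4 (2.15, 1.45 to 2.94), and CPSF6, a subunit gene of a factor of messenger RNA cleavage, 4.11, 12.8, 4.91, 20.2 and 10.8 (2.29, 1.48 to 3.22). In all 4, contact at 4 h was closer to 0 m than to 30 m. CDH26, a cadherin gene, went down, with 7.64, 1.80, 4.49, 1.70 and 1.58 (-2.17, -3.52 to -0.98).

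With the same limits, the largest H3K4me3 increases at 16 h were also loops with 1 read pair at 0 m. MANBA, the gene of lysosomal beta-mannosidase, had 1, 17, 43, 19 and 11 read pairs and a log2 change of 3.70 (1.05 to 9.08). NIBAN1, ACTR5, the shared promoter of PDCD10 and SERPINI1, NFIB and MFSD14A followed with 3.62 down to 3.36. Decreases were led by a loop of 205 kb at CALM2, a calmodulin gene, from 9 read pairs at 0 m to 1 at 16 h (-3.71, -9.17 to -0.86). Next came RPS24, the shared promoter of PPP2R3C and PRORP, another loop of MOAP1 and LYSET, KCNK1 and CALCOCO1, from -2.87 to -2.54. The intervals of the MOAP1 and LYSET loop (-8.43 to 0.29) and of KCNK1 (-8.17 to 0.79) include 0.

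By the same ranking and limit, chosen after the values were seen, the first 6 H3K4me3 increases were those of FEM1C, SLC45A3, ACSL3, TMPRSS2, the shared promoter of MRPL21 and IGHMBP2, and ARID5B. SLC45A3, a prostate transporter gene, had contacts of 1.97, 0.342, 2.22, 8.31 and 3.30 in a loop of 35 kb (2.07, 0.91 to 3.47). TMPRSS2, which encodes a membrane serine protease, had 6.49, 7.17, 7.76, 17.8 and 6.87 in a loop of 15 kb (1.46, 0.78 to 2.18). ACSL3, which encodes a fatty acid activating enzyme, had 1.41, 4.78, 5.47, 6.38 and 3.02 (2.18, 0.81 to 3.89). In SLC45A3 and TMPRSS2 16 h stands above all other time points, and in ACSL3 it is followed closely by 4 h and 30 m. FEM1C had 2.54, 4.44, 3.41, 10.2 and 2.75 (2.01, 0.98 to 3.22). PPP6C, a phosphatase subunit gene, was among the decreases, with 11.0, 8.20, 8.95, 4.06 and 7.42 (-1.44, -2.28 to -0.64).

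At 9657 genes (48.6% of 19881) the promoter had at least 1 member loop. These genes had a median of 3 members, with quartiles at 2 and 7, while 2064 had exactly 1 and 150 had 20 or more. At the 8485 promoter anchors with a member and at least 2 promoter to distal loops, members were 19.1% of the loops but held 37.2% of H3K27ac and 30.9% of H3K4me3 contact. The strongest loop of such an anchor was a member in 48.5% (47.4 to 49.5) of cases in H3K27ac and in 40.4% (39.3 to 41.4) in H3K4me3. Since calls in both sets favour strong loops, this describes the members and does not set them apart.

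PPP3CA, the catalytic subunit gene of the phosphatase calcineurin, had the most members, 65. Outside chromosome 8, which the rule for naming leaves out, ARID5B, a DNA-binding protein gene, and NRIP1, a corepressor of nuclear receptors, followed with 41 each, then NRP1, a receptor for semaphorins and vascular growth factor, with 40, and EFNA5, an ephrin ligand, with 39. GULP1, an adaptor of cell engulfment, had 38, as did the shared promoter of PTGR3 and TSHZ1, and ARID2, a subunit of a chromatin remodelling complex, had 37 and ATP1B1, the beta subunit of the sodium pump, 36. Summed over its members, PPP3CA had H3K27ac contacts of 105, 84.8, 93.6, 111 and 96.6, with a 16 h change of 0.09 (-0.11 to 0.28) that is negative under equal totals. NRIP1, itself a known androgen target, had 93.4, 81.7, 71.6, 120 and 84.2 in H3K27ac and 70.2, 89.2, 125, 82.9 and 76.4 in H3K4me3, with the peak at 16 h in the first and at 4 h in the second. GULP1 differed from the other 9 genes in H3K27ac with 200, 92.3, 155, 125 and 133, lower than at 0 m at every later time and by -1.11 (-1.28 to -0.94) at 30 m. ATP1B1 had 61.4, 70.2, 48.7, 107 and 86.8 (0.80, 0.56 to 1.04 at 16 h), and its H3K4me3 contacts stayed between 110 and 132.

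Among genes with a mean of at least 10 read pairs summed over their members, 604 of 7094 (8.51%) were at least 2-fold higher at 16 h in H3K27ac and 247 (3.48%) at least 2-fold lower. In H3K4me3 287 of 8116 (3.54%) were higher and 108 (1.33%) lower. The genes named next were chosen after their values were seen, by the bound of their interval. TMEM219, PPP6R2 and EIF4H were among the H3K27ac increases with 1.85, 1.83 and 1.75. FOXP1, a forkhead factor with 29 members, had 30.9 at 0 m, 86.0 at 16 h and 75.8 at 72 h (1.48, 1.17 to 1.80 at 16 h). KCMF1, a ubiquitin ligase gene, had 59.2 at 30 m, 35.9 at 4 h and 75.6 at 16 h (1.48, 1.15 to 1.83). MANEA, which encodes an endomannosidase of the Golgi, went down over 13 members, with 31.4, 13.5, 24.4, 12.1 and 13.9 (-1.38, -1.87 to -0.90). CDH26 did so over 6 members, with 25.3, 8.64, 23.3, 9.13 and 9.47 (-1.47, -2.03 to -0.92). At both genes 4 h was the time point closest to 0 m.

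In H3K4me3 the same bound, again used after the values were seen, put SLC45A3 and TMPRSS2 first among the increases at 16 h. SLC45A3 had 18.9, 17.4, 20.8, 49.1 and 21.2 over 4 members (1.38, 0.98 to 1.79), and TMPRSS2 had 21.4, 19.8, 21.9, 53.5 and 23.6 over 5 (1.32, 0.95 to 1.71). At both, only 16 h departs from the other 4 time points. H3K27ac contacts followed another course at TMPRSS2, with the highest value, 42.3, at 4 h, and then 18.9 at 16 h and 12.4 at 72 h. In the SLC45A3 loop of 35 kb, H3K27ac contacts were 7.35, 4.32, 8.12, 9.34 and 4.74. They were highest at 16 h, with a change of 0.35 (-0.39 to 1.12). First among the decreases was the promoter shared by FGF21, a metabolic hormone gene, and FUT1, with 14.7, 14.3, 11.7, 5.22 and 8.25 (-1.49, -2.22 to -0.79).

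Of the 30 androgen-induced genes listed, 20 had at least 1 member (66.7%, 47.2 to 82.7, against 48.6% of all genes). This is not particular to members. H3K27ac-only loops were found at 73.3% of the listed genes (61.2% of all genes) and H3K4me3-only loops at 93.3% (63.6%). The 139 member loops of the 20 genes had summed H3K4me3 contacts of 380, 444, 552, 632 and 416, highest at 16 h and next at 4 h. The log2 change at 16 h was 0.73 (0.64 to 0.82), which is 0.63 above that of all members, and without TMPRSS2 and SLC45A3 it was 0.64 (0.54 to 0.74). Of 19 genes with enough read pairs, 18 were higher at 16 h (4869 of 8116 over all genes), with a median of 0.73 against 0.09 over all genes, and 4 were at least 2-fold higher (background 3.54%), while none was 2-fold lower. H3K27ac contacts of the same loops were 476, 474, 561, 560 and 429, so that 4 h and 16 h were equally high. Their change at 16 h, 0.23 (0.14 to 0.32), was 0.02 below that of all members and is slightly negative under equal totals, while by gene 16 of 19 were higher (4467 of 7094 over all genes), with a median of 0.33 against 0.18 over all genes. In H3K27ac 3 of 19 genes were at least 2-fold higher (background 8.51%).

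Single androgen-induced genes differed in course. ABCC4, which encodes an efflux pump, had H3K4me3 contacts of 27.3, 38.8, 37.3 and 28.6 over 10 members in order of time after DHT, nearly as high at 16 h as at 4 h, and a 16 h change of 0.90 (0.50 to 1.31). SORD, the sorbitol dehydrogenase gene, peaked at 16 h with 20.9, 20.2, 23.9, 37.1 and 24.2 (0.83, 0.44 to 1.24). EAF2, an elongation factor partner, had 8.18, 16.7, 15.8, 16.6 and 12.1 (1.02, 0.40 to 1.68), near its highest value from 30 m to 16 h. ZBTB16, a zinc finger repressor gene, had the largest sum in the list, 99.3, 111, 115, 146 and 100 over 12 members (0.56, 0.38 to 0.75). ELL2, an elongation factor, and RHOU, a small GTPase, also with 12 members each, had 0.57 (0.17 to 0.99) and 0.63 (0.26 to 1.01). MAF had 11 members, and DBI and ELK4 had 9 each, with intervals that include 0 in H3K4me3 at 16 h. STEAP2, a metalloreductase gene, had 24.5, 31.8, 34.5, 34.8 and 32.4 in H3K4me3, against 133, 81.5, 130, 131 and 90.0 in H3K27ac. ACSL3 was high in both marks at 16 h, 1.06 (0.65 to 1.48) in H3K27ac and 0.97 (0.54 to 1.41) in H3K4me3. EAF2 and ABCC4 were also higher in H3K27ac at 16 h, by 1.49 (0.40 to 2.73) and 0.66 (0.28 to 1.05). CREB3L4 was high in neither mark, with 0.12 (-0.52 to 0.77) and 0.01 (-0.49 to 0.53), both negative under equal totals.

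The cell line label was compared with markers through the loops. Of 12 prostate luminal markers 9 had members, including KRT8, KRT18, FOLH1, TMPRSS2, SLC45A3 and KLK4, but KLK2, KLK3 and HOXB13, classical markers of these cells, had none. Members were also present at 1 of 6 basal markers (ITGB4), 1 of 6 neuroendocrine markers (CHGB), 1 fibroblast or endothelial marker of the 7 with an annotated start (COL1A1), none of 7 leukocyte markers and 1 of 6 hepatocyte markers (APOA1). TP63, KRT5, CHGA and PTPRC, which define basal, neuroendocrine and blood cells, were among those without. The 56 members of the luminal markers had H3K4me3 sums of 127, 138, 155, 231 and 143 (0.86, 0.70 to 1.02 at 16 h). Without TMPRSS2 and SLC45A3 the change was 0.56 (0.37 to 0.76), so that these genes carry a large part of it, and 2 of 9 genes were at least 2-fold higher (background 3.54%). H3K27ac sums were 300, 225, 319, 318 and 219, lowest at 30 m and 72 h. FOLH1, the prostate membrane antigen gene, was lower in H3K27ac at 16 h (-0.58, -0.93 to -0.22). In the other cell type lists the sums were small. ITGB4 had H3K27ac contacts of 2.35, 4.32, 3.42, 6.37 and 5.53, CHGB 1.47, 2.34, 1.71, 2.34 and 4.21, COL1A1 3.23, 7.02, 5.77, 8.70 and 8.16, and APOA1 9.99, 11.9, 11.3, 10.8 and 12.4.

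Luminal transcription factor genes had the largest H3K27ac change at 16 h among the lists with over 50 loops. Of 12 listed 8 had members, and their 66 loops had H3K27ac sums of 224, 179, 193, 306 and 252, a change of 0.45 (0.32 to 0.58) at 16 h that is 0.20 above all members, after values below 0 m at 30 m and 4 h. FOXA1, a forkhead factor that opens chromatin, had 122, 72.3, 94.2, 155 and 108 over 17 members (0.35, 0.18 to 0.53). XBP1, a factor of the secretory pathway, had 44.1, 59.7, 44.4, 80.5 and 90.5 over 25 (0.87, 0.59 to 1.15). SPDEF, a prostate ETS factor, differed by having the increase in H3K4me3, with 18.9, 17.1, 15.2, 32.5 and 18.7 (0.78, 0.36 to 1.21), and none in H3K27ac (-0.02, -0.44 to 0.39). Of the listed factors, 5 genes in H3K27ac and 6 in H3K4me3 had enough read pairs, and none passed 2-fold at 16 h. Over all genes 8.51% and 3.54% were higher and 3.48% and 1.33% lower. So few genes cannot show a difference from these shares. Of 6 androgen-repressed genes 5 had members, led by CAMK2N1 with 14, and their H3K27ac change at 16 h, 0.02 (-0.26 to 0.30), was 0.24 below that of all members and is negative under equal totals. CAMK2N1 had 0.01 (-0.34 to 0.36) and BCL2 0.17 (-0.79 to 1.18), both negative under equal totals, and UGT2B15, a steroid glucuronidating enzyme gene, -0.27 (-1.06 to 0.53).

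Immediate early genes and transcriptional coregulators had summed H3K27ac contacts that were higher at 30 m, 16 h and 72 h than at 0 m. Members were found at 6 of 8 immediate early genes, whose 55 loops had sums of 120, 159, 119, 161 and 164 (0.42, 0.24 to 0.59 at 16 h, an interval that takes in the 0.25 of all members). EGR1, which encodes a zinc finger factor induced by growth signals, had 25.6, 53.3, 26.3, 43.3 and 40.5 over 7 members, highest at 30 m, and makes up much of the list's difference between 0 m and 30 m. JUN had 26 members and 0.27 (-0.05 to 0.60), IER2 13 and 0.28 (-0.06 to 0.64), and ATF3 4 and -0.01 (-0.81 to 0.81). Coregulator genes had members at 10 of 12, with sums of 200, 255, 207, 266 and 249 (0.41, 0.27 to 0.55). Of these NCOA3 and NCOR1 had 0.18 and 0.04, both negative under equal totals. Of 9 coregulator genes with enough read pairs 1 was at least 2-fold higher in H3K27ac (background 8.51%). In H3K4me3 at 16 h these lists stood at 0.06 and 0.15, the first negative under equal totals.

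Genes of sterol and fatty acid synthesis, ribosomes and complex I had lower H3K27ac changes at 16 h than the members as a whole. Of 14 sterol and fatty acid genes 12 had members, with a change of 0.08 (-0.06 to 0.23) that was 0.17 below all members and is negative under equal totals, and in H3K4me3 at 72 h their sum was 157 against 232 at 0 m (-0.56, -0.72 to -0.41). ACACA and IDI1 had 10 members each, with 0.28 (-0.14 to 0.70) and 0.51 (-0.15 to 1.19). MVD, with 6, was lower in H3K4me3 (-0.73, -1.24 to -0.23). Cytosolic ribosomal protein genes had members at 72 of 88 (81.8%), with 0.03 (-0.05 to 0.10), which is 0.23 below all members and negative under equal totals. Of these RPL12 had -0.73 (-1.22 to -0.24), RPL17 0.56 (0.09 to 1.04) and RPS13 0.46 (0.10 to 0.83). Complex I subunit genes had members at 34 of 36 (94.4%), the highest share of any list, with 0.02 (-0.10 to 0.14), also negative under equal totals. NDUFV3 led these with 21 members, followed by NDUFV2, NDUFA11 and NDUFS8. High shares were not particular to members. H3K27ac-only loops were found at 97.2% of complex I genes and 90.9% of ribosomal protein genes, against 61.2% of all genes. For H3K4me3-only loops the shares were 97.2% and 95.5%, against 63.6%. Proteasome genes had members at 32 of 39 and a summed change close to that of all members, 0.28 (0.17 to 0.39). By gene 17 of 29 were higher (4467 of 7094 over all genes), with a median of 0.08 against 0.18 over all genes. In that list PSMD9 had 0.61 (0.34 to 0.88) and PSMA1 0.84 (0.36 to 1.35), whereas PSMD7 and PSMD1 had 0.00 and 0.05, both negative under equal totals.

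Large gene families differed in the share of genes with members, which was 48.6% over all genes. They also differed in the other sets. H3K27ac-only loops were found at 61.2% of all genes, 71.4% of zinc finger genes, 62.8% of solute carrier genes and 51.3% of HOX genes. For H3K4me3-only loops these shares were 63.6%, 86.5%, 59.8% and 56.4%. Numbered zinc finger genes had members at 325 of 504 (64.5%) with a low median of 2, and their H3K27ac change at 72 h, 0.37 (0.32 to 0.42), was 0.17 above all members. ZNF608 led with 33 members and H3K27ac contacts of 105, 57.6, 70.9, 129 and 124, and ZNF277, ZNF592 and ZNF827 had 20, 17 and 17. Solute carrier genes had members at 159 of 368 (43.2%) and a change of 0.21 (0.15 to 0.26) at 16 h, which turns negative under equal totals. Of 111 solute carrier genes with enough read pairs 8 were at least 2-fold higher in H3K27ac (background 8.51%) and 5 at least 2-fold lower (background 3.48%). Among the 4 with most members SLC22A23 had the largest change, with 25.9, 44.1, 28.0, 62.6 and 51.3 (1.28, 0.93 to 1.64), beside SLC26A11, SLC39A10 and SLC10A7 at 0.47, 0.25 (the size of the shift under equal totals) and -0.01. HOX cluster genes had members at 13 of 39 (33.3%), mostly at HOXC9 with 16 and HOXC13 with 14, before HOXA10 and HOXB9 with 4 each. Their summed changes at 16 h, carried mainly by HOXC9 and HOXC13, were -0.08 (-0.27 to 0.11) in H3K27ac, where 5 of 7 genes with enough read pairs were higher, near the share over all genes, with a median of 0.45 against 0.18, and -0.30 (-0.48 to -0.11) in H3K4me3. Keratin-associated protein genes, expressed in hair, had members at 6 of 94, KRTAP10-5 with 5, KRTAP5-6 with 2 and KRTAP10-1 and KRTAP10-2 with 1 each. Summed H3K27ac contact at these 6 genes was 4.88 at 16 h (-1.62, -2.40 to -0.88). Olfactory receptor genes had members at 2 of 404 (0.495%), OR6J1 and OR5M11.

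**Figure D5:**
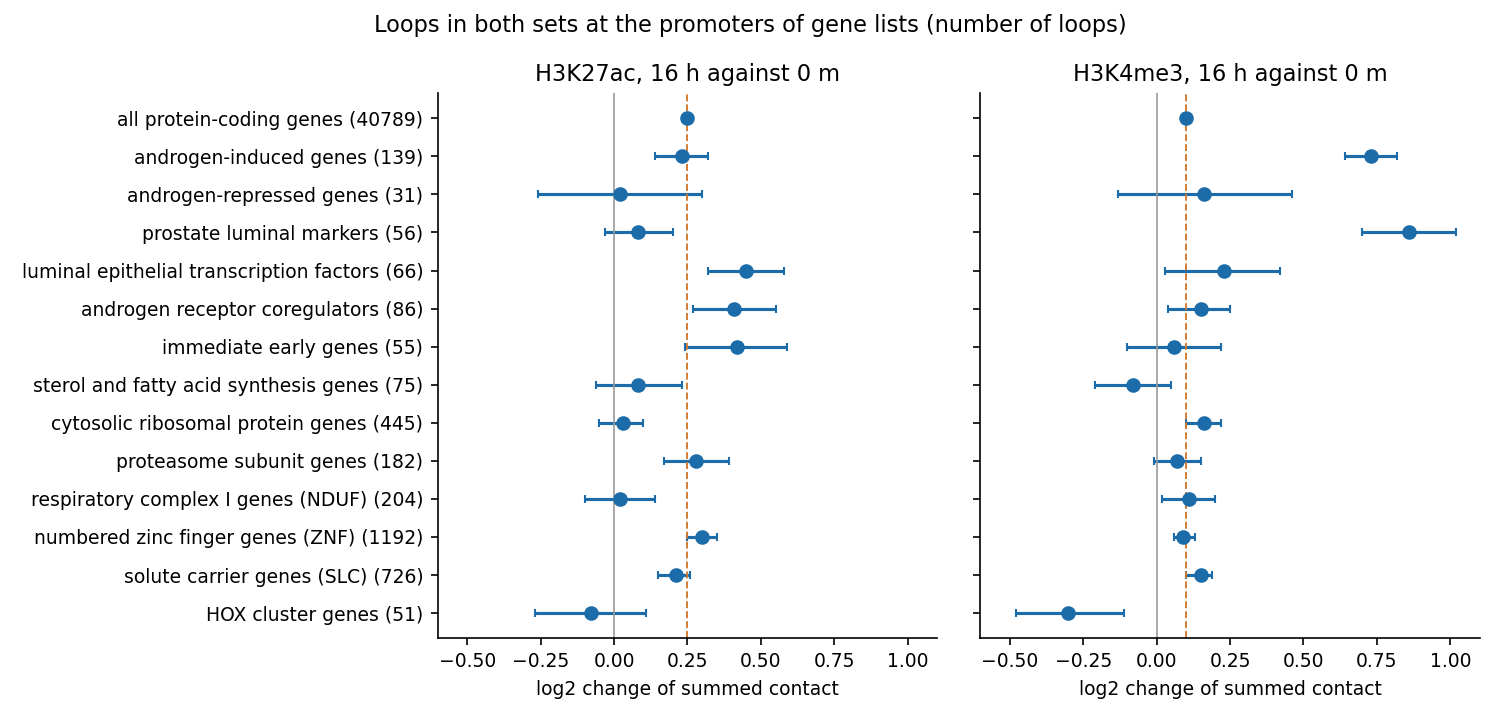
Log2 change of summed contact from 0 m to 16 h (x axis) of the loops in both sets at the promoters of 13 gene lists and of all genes, with the number of loops in brackets, for H3K27ac (left) and H3K4me3 (right). Bars are 95% counting intervals and the dashed line is the value of all members, 0.25 and 0.10. Androgen-induced genes (0.73) and prostate luminal markers (0.86) lie far to the right in H3K4me3, and under equal totals every point moves left by 0.25 in the first panel and 0.14 in the second, so that values between 0 and these shifts turn negative.

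Seen from the other end, the members had 27815 distal anchors, of which 20503 (73.7%) were joined to 1 promoter anchor, 7312 to more and 664 to 5 or more. The distal anchor joined to most promoters reached 21 promoter anchors on chromosome 19, among them those of ZNF17, ZNF211 and ZNF274, at lengths from 25000 to 915000 bp. Its H3K27ac contacts summed to 13.2, 21.4, 12.6, 24.0 and 21.8 (0.86, 0.35 to 1.39 at 16 h), and its H3K4me3 contacts to 49.4, 33.5, 56.3, 50.1 and 38.5. Next came 3 anchors on the same chromosome with 17 promoter anchors each. The first was joined to BSG, CDC34 and POLR2E and had an H3K4me3 change of -0.92 (-1.30 to -0.53) at 16 h, from 37.2 to 19.7. The second was joined to OAZ1, TCF3 and LMNB2, with H3K27ac contacts of 55.8, 95.2, 53.2, 89.4 and 86.3, and the third to zinc finger genes such as ZNF44 and ZNF433, with 22.6, 32.2, 26.7, 34.2 and 71.3. The fifth, on chromosome 12, reached 16 promoter anchors, among them those of STAT2, STAT6 and SHMT2, and had an H3K27ac change of -0.31 (-0.77 to 0.16).

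Distal anchors of the members also took part in other loops. In the H3K27ac set 20867 of them (95% interval 74.5% to 75.5%) were also an end of a loop between distal anchors, against 62.1% for H3K27ac-only and 38.3% for H3K4me3-only loops. In the H3K4me3 set the shares were 35.0%, 19.2% and 16.6%. The start of a further transcript of a protein-coding gene lay near 15.5% of the distal anchors of the members, which are distal to canonical starts only.

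The distal anchor lay upstream of the start in 47.8% (47.3 to 48.3) of members and downstream in 52.2%. It was inside a gene of the promoter anchor in 17.3%, inside another protein-coding gene in 45.8% and in no protein-coding gene in 36.9%. The nearest canonical start to the distal anchor was that of the looped promoter in 25.1% (24.7 to 25.6), against 22.1% in H3K27ac-only and 19.1% in H3K4me3-only loops. This share depends on length, from 91.0% of members of 10 kb to below 15 kb to 4.41% of those from 500 kb to 1 Mb. Within length classes from 20 to 200 kb, H3K4me3-only loops had the highest share and H3K27ac-only loops the lowest, as from 20 to 50 kb with 69.9%, 64.4% for members and 55.9%. No other start lay between the anchors in 42.2% of members, and 5 or more lay between them in 13.7%, against 18.5% and 20.1% in the other sets.

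In sequence, the distal anchors of the members were close to the average anchor and unlike their promoter anchors. Their median GC content was 42.7%, against 41.9% for all anchors and 49.1% for the promoter anchors of the members. Over the whole 1 kb anchor and on both strands, the forkhead motif TGTTTAC was present in 4172 of the 27815 distal anchors of the members (14.5% of all anchors) and the CTCF core AGGNGGCAG in 11.4% (10.3%). The AP-1 motif TGANTCA was present in 27.3% (27.3%), the GATA motif AGATAA in 48.5% (50.1%) and the HOX motif CCAATAAA, which contains the CCAAT box, in 5.39% (5.17%). One arm of the androgen response element, AGAACA, which any full element contains, was present in 55.0% (55.6%). A GC box was present in 17.0% of the distal anchors (16.0%) and in 48.7% of the promoter anchors, and the ETS motif in 3.13% (3.04%) and 10.4%.

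The change of members with and without a motif in the distal anchor was compared for each motif. At 30 m H3K27ac changes differed most for motifs rich or poor in G and C, with 0.39 for the NRF1 motif against 0.18 without it, 0.35 against 0.18 for ETS, 0.32 against 0.15 for the GC box and 0.11 against 0.27 for the TATA box. At 16 h the 6014 members with the forkhead motif had an H3K27ac change of 0.28 (0.26 to 0.30), and those without it 0.25 (0.24 to 0.26). With the CTCF core the change was 0.26 (0.24 to 0.28) and without it 0.25. The ETS motif went with a larger H3K27ac change, 0.39 (0.36 to 0.43) over 1589 members against 0.25. The 8 members with the full androgen response element had 0.75 (0.15 to 1.37) in H3K27ac and 0.62 (0.05 to 1.21) in H3K4me3 at 16 h, on 269 H3K27ac read pairs over the 5 time points. Members without the element had 0.25 and 0.10, which both intervals take in. In the wider 5 kb bin, 55 members held the element, with 0.31 (0.08 to 0.53) and 0.37 (0.17 to 0.56). Those without it again had 0.25, within the H3K27ac interval, and 0.10, below the H3K4me3 interval.

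Of the loops with a printed element, the strongest was that of CALM2, with H3K27ac contacts of 3.23, 2.88, 2.14, 4.25 and 4.21 (0.39, -0.74 to 1.60 at 16 h) and H3K4me3 contacts of 1.69, 4.78, 4.91, 4.45 and 2.75 over 50 kb. Its 16 h change in H3K4me3 was 1.39 (0.06 to 2.98), opposite to that of the CALM2 loop of 205 kb above. FAM120A had 2, 10, 10, 14 and 8 H3K27ac read pairs, a log2 change of 2.34 (0.22 to 5.52) at 16 h. CEP112 had 3, 7, 6, 9 and 13 (1.12, -0.89 to 3.64), and SCLY 4, 8, 3, 6 and 5 (0.12, -1.96 to 2.38, negative under equal totals). TOX3 had 4, 2, 6, 5 and 4 (-0.15, -2.36 to 2.19). FGGY had 4, 5, 3, 8 and 2 in H3K27ac (0.53, -1.37 to 2.71) and 0, 2, 7, 4 and 5 in H3K4me3, so that no H3K4me3 change is given. In CALM2, CEP112, SCLY, TOX3 and FGGY a difference between 0 m and 16 h in H3K27ac was not detectable at this depth.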

How the data were processed

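The deposited tables hold, for each mark and time point, the contact frequency of every loop, a signal that the authors obtained from HiChIP read pairs and scaled by TMM. Per the labels there were 10 H3K27ac and 5 H3K4me3 samples, grouped by mark and time point. According to the submitters' processing notes, reads were trimmed with Trim Galore 0.5.0 and mapped with HiC-Pro 3.1.0 and Bowtie2, and loops were called with FitHiChIP in bins of 5 kb, of which the tables give the middle 1 kb. The members and the gene lists were chosen with earlier results of these data known.

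Read pairs were recovered by dividing each value by the step of its table, between 0.0792 (H3K4me3 4 h) and 0.342 (H3K4me3 30 m). Promoters were taken from Gencode release 44 on GRCh37, canonical transcripts, within 2.5 kb, with an overlap of at least 1 bp. Each time point was compared with 0 m as the log2 ratio of summed contact, with Clopper-Pearson 95% intervals for the ratio of read pairs, and no test was made, since each group has 1 value per loop. A ratio needs at least 1 read pair in both tables, and a count of folds a mean of at least 10 read pairs. The 20 gene lists cover androgen-induced and androgen-repressed genes, luminal transcription factors, cell type markers, immediate early genes, coregulators, sterol and fatty acid synthesis, ribosomes, proteasome, complex I, and the zinc finger, olfactory receptor, HOX, keratin-associated and solute carrier families, beside all protein-coding genes. Motifs were searched as exact letters on both strands. Python 3.11.15, numpy 2.4.6, pandas 2.3.3, scipy 1.17.1 and pysam 0.24.0 were used, and the code was tested on simulated data.

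Genes and loops were named by a rule that leaves out chromosome 8. It takes the 8 loops with the highest mean contact, the 6 largest increases and 6 largest decreases at 16 h per mark among loops with a mean of at least 10 read pairs, the 10 genes with most members, the 5 distal anchors with most promoters, up to 4 genes per list (12 for the androgen-induced list) and up to 8 loops with a full androgen response element. Some genes and sequences under this rule are not reported here. Everything else named is said to have been chosen after its values were seen. The alternatives tried were 2 other scalings, members of at least 20 kb, promoter windows of 1 kb and 5 kb, anchors matched within 1 bin, starts of all transcripts, other minimum read pairs, a 1.5-fold limit and motifs in the 5 kb bin. Expression and binding data were not used, and no replicate value could be, since the tables hold none.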

Additional observations from a re-analysis of the deposited data

Results flagged for a closer look

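At 4 h and at 72 h the members as a whole stood on opposite sides of their 0 m value in the 2 marks, and these differences between marks were not tested. At 4 h the log2 change of summed contact was -0.06 in H3K27ac and 0.28 in H3K4me3. At 72 h it was 0.20 in H3K27ac and -0.13 in H3K4me3. Over all loops of every length the values were 0.07 and 0.22 at 4 h, and 0.17 and -0.13 at 72 h. At 4 h H3K27ac-only loops had -0.03 and 0.17, and H3K4me3-only loops -0.03 and 0.16. All loops of 10 kb to below 1 Mb had -0.02 and 0.18 at 4 h. Neither the contrast at 4 h nor that at 72 h was therefore particular to the members. With equal totals the members had -0.13 and 0.05 at 4 h, and only 0.03 and -0.01 (-0.01 to 0.00) at 72 h.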

How the results depend on the processing

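Of 82 alternative values of 23 results, 62 moved, 1 changed sign and 19 stayed the same, by the counting interval of the main value or, for the number of members and the shares past 2-fold, by a limit of 1.5 times. Changes are listed by time after DHT, the earliest first. With equal totals H3K27ac had 0.10, -0.13, 0.01 and 0.03, and H3K4me3 0.04, 0.05, -0.04 (the change of sign) and -0.01. With the median of ratios H3K27ac had 0.23 at 30 m and 0.30 at 16 h, and H3K4me3 0.03, 0.15, 0.01 and -0.08. Members of at least 20 kb had 0.15, -0.09, 0.23 and 0.18 in H3K27ac, and 0.07, 0.29, 0.11 and -0.11 in H3K4me3. With a promoter window of 1 kb H3K27ac had 0.25 at 30 m, 0.28 at 16 h and 0.24 at 72 h, and H3K4me3 0.05, 0.29, 0.08 and -0.18. With anchors matched within 1 bin there were 100879 members, with 0.17, -0.04, 0.16 and 0.14 in H3K27ac and 0.04, 0.23, 0.09 and -0.11 in H3K4me3. Members with a mean of at least 10 read pairs had 0.27, -0.03, 0.40 and 0.29 in H3K27ac, and in H3K4me3 0.26 at 4 h, 0.09 at 16 h and -0.16 at 72 h. For all of these the cause was not tested. The number of members stayed within 1.5 times under the other 4 settings, from 33170 to 39975.

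At 16 h the share of H3K27ac members past 2-fold was 11.9% higher and 7.72% lower with equal totals, and 1.46% lower with at least 20 read pairs (all loops of the range 9.55%, 12.1% and 2.55%). In H3K4me3 it was 5.60% lower with equal totals, and 3.80% higher and 1.12% lower with at least 20 read pairs (all loops 6.35%, 3.44% and 1.53%). The 1.5-fold limit, which takes in more loops by construction, gave H3K27ac shares of 37.7% and 11.2% (all loops 30.7% and 16.7%), and H3K4me3 shares of 21.8% and 11.1% (20.5% and 12.4%). The nearest start was that of the looped promoter in 26.3% with starts of all transcripts and in 21.8% of members of at least 20 kb. In the wider 5 kb bin, which holds more of any motif, the androgen response element was present in 0.140%, the forkhead motif in 53.9% and the CTCF core in 43.9% of distal anchors. In members of at least 20 kb the H3K27ac change at 16 h was 0.25 with the forkhead motif and 0.23 with the CTCF core, and the H3K4me3 change with the CTCF core 0.10.

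No paired analysis was possible because the tables give no separate replicates to pair. Intervals therefore leave out the variation between cultures and libraries. Scaling decides the sign of small changes. Depth differs between tables and is far greater for H3K4me3 at 4 h, the median of 4 to 8 read pairs per member in most other tables allows only large changes of single loops to be seen, and merged calling ties membership to the deeper tables.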
